A study of Mus musculus with 8 samples.

Results

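Ccl3, Ccl4, Ccl5 and Xcl1 encode chemokines that activated T cells release. They were followed through T cells from the pancreas of diabetic NOD mice. The 4 genes were picked by name from the 32285 features of the series, with their levels in these libraries already known, so their levels by library and gate are given as a description without a test. Their transcripts were counted as raw unique molecular identifiers (UMIs, each standing for 1 captured transcript end, so that a level does not scale with gene length). A cell entered the CD8 gate with a UMI of Cd8a or Cd8b1 but no Cd4, and the CD4 gate with Cd4 but neither CD8 gene, provided it also carried at least 2 UMIs over Cd3d, Cd3e, Cd3g, Trac, Trbc1 and Trbc2.

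NOD is an inbred mouse strain that develops autoimmune diabetes. All mice are labelled female and aged 3 to 4 months in the sample labels, or up to 5 months in the protocol text, and T cells were sorted as CD45+ CD3+ TCRβ+, frozen, and run on droplet chemistry. There was 1 library from active disease (glucose above 600 mg/dl) and 1 from disease onset (250 mg/dl), both harvested on day 1. Mice with new-onset disease (200 to 300 mg/dl) gave 3 libraries of the PPCA group and 3 of the vehicle group, named for days 2, 3 and 4. PPCA was nutlin-3 at 50 mg/kg, an MDM2 inhibitor that stabilises p53, with MK-1775 at 25 mg/kg, a Wee1 inhibitor that disturbs the cell cycle. The vehicle held 30% ethanol, 5% Tween 20 and 65% PEG300. The number of mice behind a library is not stated, so p-values measure the spread between these libraries, and how the named days map to days of dosing is not stated either.

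Chemokines are small secreted proteins that steer leukocytes along gradients by binding G protein-coupled receptors. CCL3 and CCL4 (macrophage inflammatory proteins 1-alpha and 1-beta) and CCL5 (RANTES) act on T cells and myeloid cells through receptors of the CC class, and CCL3 and CCL5 bind CCR1. XCL1 (lymphotactin) belongs to another chemokine class and binds XCR1 on cross-presenting dendritic cells. Memory CD8 T cells keep a store of Ccl5 transcript at rest, whereas Ccl3, Ccl4 and Xcl1 are transcribed after T cell receptor stimulation.

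In the GENCODE M21 annotation of GRCm38, Ccl5 (ENSMUSG00000035042) lies at chr11:83525778-83530518 on the minus strand, Ccl3 (ENSMUSG00000000982) at chr11:83647844-83649355 on the minus strand and Ccl4 (ENSMUSG00000018930) at chr11:83662584-83664683 on the plus strand. Ccl3 and Ccl4 thus lie close together and point away from each other. Xcl1 (ENSMUSG00000026573) lies alone of the 4 on chromosome 1, at chr1:164931644-164935527 on the minus strand. The build the count files used is not given in the sources used here. Promoters are shown because transcripts of these genes turned up in the same cells. RefSeq promoter sequences on GRCm38.p6 were found for 2 of the 4 genes. Each line holds the 250 bases before the annotated start, 5′ to 3′ on the gene's strand, and capitals mark matches to short cores of transcription factors that act in T cells: GGAAA, the NFAT core (TTTCC on the other strand), and TGTGGT, the RUNX core (ACCACA on the other strand).
Xcl1, chr1:164935523-164935772: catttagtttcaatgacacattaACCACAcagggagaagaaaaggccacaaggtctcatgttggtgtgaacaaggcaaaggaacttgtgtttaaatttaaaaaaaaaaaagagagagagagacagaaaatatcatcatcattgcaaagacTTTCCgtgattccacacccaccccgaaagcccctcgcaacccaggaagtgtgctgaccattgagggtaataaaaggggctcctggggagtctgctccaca
Ccl3, chr11:83649379-83649628: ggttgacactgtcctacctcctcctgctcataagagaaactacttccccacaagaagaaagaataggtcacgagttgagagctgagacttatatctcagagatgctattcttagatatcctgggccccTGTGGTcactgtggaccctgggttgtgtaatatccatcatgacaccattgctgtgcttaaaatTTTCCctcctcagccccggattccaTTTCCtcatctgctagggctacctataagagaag
The Xcl1 window held 1 NFAT core, at -100 from the start, and 1 RUNX core, at -227. The Ccl3 window held 2 NFAT cores, at -59 and -34, and 1 RUNX core, at -122. Among 32817 promoter windows of the same length, read on both strands, 55.6% held an NFAT core and 14.0% a RUNX core. The AP-1 letters TGANTCA, held by 6.75% of the windows, matched neither. No 2 marked matches overlap, and a match of letters is not evidence of binding.

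The 8 libraries held 80470 barcodes and 419420275 UMIs, of which 70352 barcodes passed as T cells. The CD8 gate took 22136 cells (1623 to 4466 per library, median 4274 to 7240 UMIs per cell) and the CD4 gate 27473 cells (2645 to 4755, median 3851 to 6162). T cell markers summed to 5205 to 7032 CPM (counts per 1000000 UMIs of the gate) in the CD8 gate and 5556 to 7348 in the CD4 gate. B cell markers summed to at most 17.9 CPM, the 5 NK and innate markers to at most 9.46, and the 7 myeloid markers to 114 to 160 CPM in the CD8 gate and 118 to 140 in the CD4 gate. The 3 gamma delta T cell markers summed to 18.0 to 107 CPM in the CD8 gate, highest in PPCA day 2 and onset, which are also the highest for Ccl5, and to 7.33 to 15.4 in the CD4 gate, although the TCRβ+ sort should remove gamma delta T cells. The 11 pancreas markers varied most, from 10.2 to 125 CPM in the CD8 gate and from 5.59 to 235 in the CD4 gate, with 2 to 5 of them at 0 in each library. The part of these cells in the results was not tested. Against the female label, 4 libraries (vehicle days 2 and 3, PPCA days 3 and 4) carried Y-linked transcripts, at 186 to 268 CPM summed, with Xist at 0.348 to 0.802 CPM. The other 4 had Xist at 427 to 624 CPM. On day 3 both arms thus carried Y-linked transcripts, and on days 2 and 4 only 1 arm did. Of 79727 distinct barcodes, 740 occurred in more than 1 library, and each pair of libraries shared 14 to 41.

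Ccl5 was the most abundant of the 4 in every library and gate. In CD8-gated cells it stood at 1192 CPM in active disease, 4031 at onset, 2476, 1059 and 1659.9 with vehicle on days 2, 3 and 4, and 4121, 1239.98 and 3264 with PPCA on the same days. The onset library and the PPCA libraries of days 2 and 4 were high, and active disease and both day 3 libraries were low, with a 3.89-fold span. After every cell was thinned to 2000 UMIs, which evens out depth and left out 308 CD8-gated and 323 CD4-gated cells, 12.8% to 39.9% of CD8-gated cells held a Ccl5 UMI. A cell that held Ccl5 held many copies: 17.7 to 30.7 UMIs on average of its 2000, against 2.15 to 6.31 for Ccl4, 1.73 to 3.50 for Ccl3 and 1.89 to 2.71 for Xcl1.

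Ccl4 followed in level, at 34.5 CPM in active disease, 266 at onset, 136, 83.6 and 227 with vehicle and 190.1, 76.2 and 403 with PPCA on days 2, 3 and 4. Its span of 11.7-fold across the 8 libraries was the widest of the 4, with active disease lowest and PPCA day 4 highest. Ccl3, its neighbour on the chromosome, stood at 9.06 CPM in active disease, 73.6 at onset, 28.4, 15.7 and 34.8 with vehicle and 42.7, 17.7 and 73.2 with PPCA. Each Ccl3 UMI came with 3.61 to 6.52 UMIs of Ccl4 in every CD8-gated sum, a narrow range beside the spans of both genes. Ccl5 UMIs per Ccl4 UMI ranged more widely, from 7.32 in vehicle day 4 to 34.6 in active disease.

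Xcl1 stood at 44.2 CPM in active disease, 100.05 at onset, 104.4, 34.8 and 78.8 with vehicle and 129.6, 43.2 and 92.4 with PPCA. Its span was 3.73-fold, close to that of Ccl5, with both day 3 libraries and active disease low. The median over libraries was 2068 CPM for Ccl5, 163 for Ccl4, 85.6 for Xcl1 and 31.6 for Ccl3. Xcl1 and Ccl4 do not keep that order in every library: Xcl1 exceeded Ccl4 in active disease, and their ranges overlap.

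**Figure D1:**
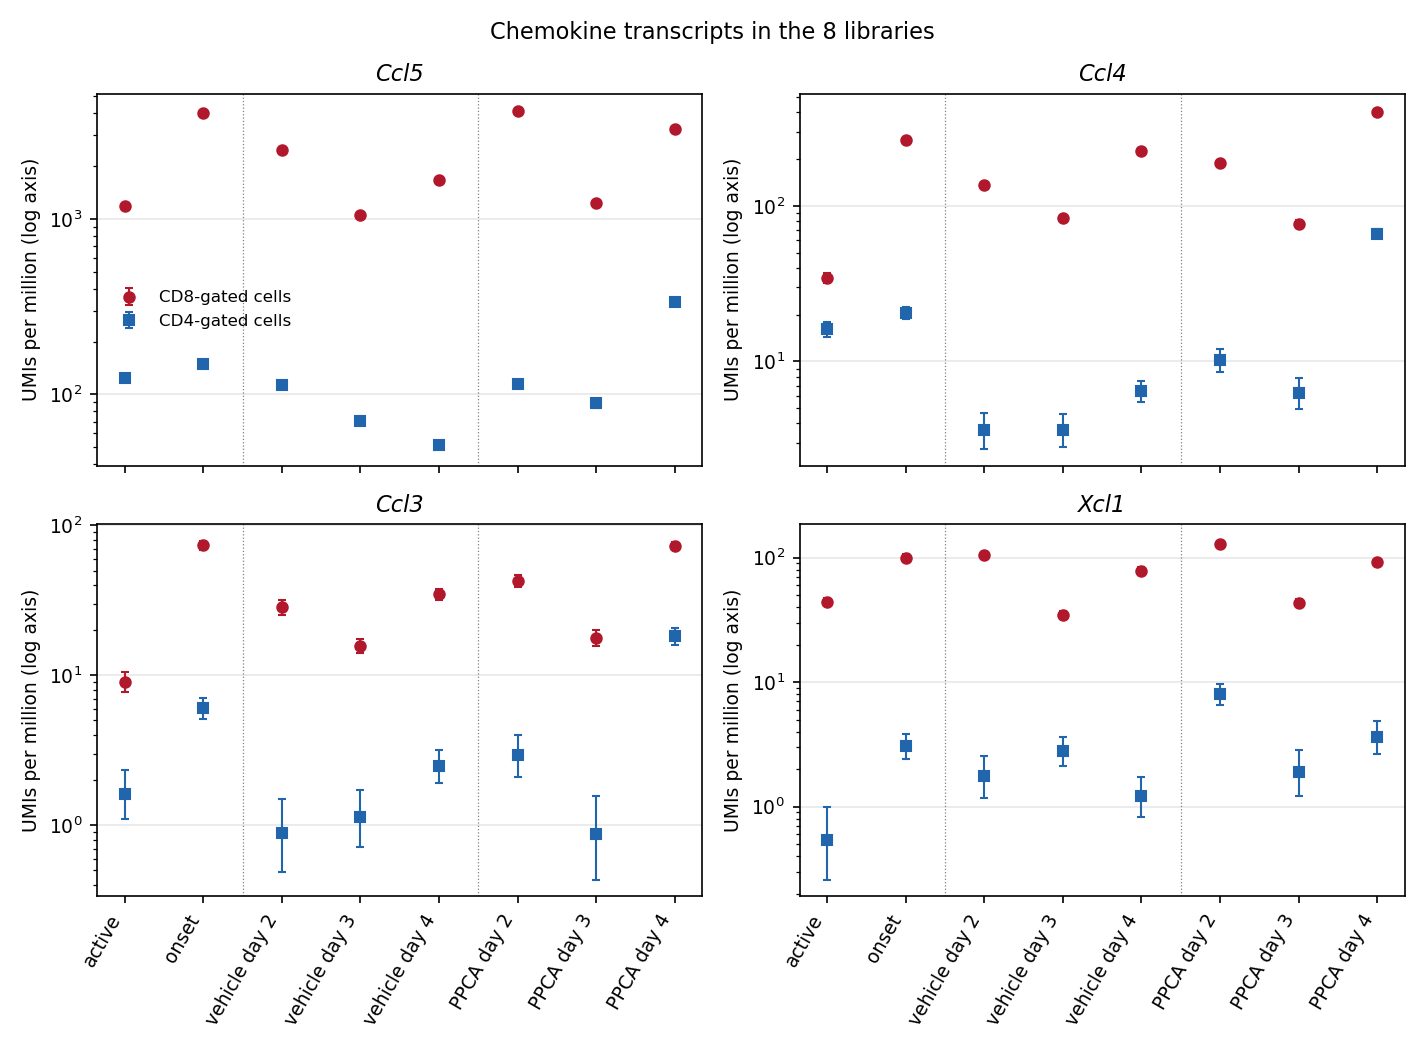
Level of each chemokine transcript in CPM (log axis) in CD8-gated (circles) and CD4-gated (squares) cells of each library; bars are exact Poisson 95% intervals, which cover counting error only. CD8-gated cells lie above CD4-gated cells for all 4 genes in all 8 libraries, and the active and day 3 libraries are low for Ccl5 in the CD8 gate.

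CD4-gated cells carried far less of each transcript. Ccl5 was at 124 CPM in active disease, 148 at onset, 113, 70.5 and 51.7 with vehicle and 115, 89.3 and 338 with PPCA on days 2, 3 and 4. Ccl4 was at 16.1, 20.5, 3.61, 3.63, 6.44, 10.2, 6.26 and 66.4 CPM in the same order, Ccl3 at 0.871 to 18.2 and Xcl1 at 0.543 to 7.96 CPM. PPCA day 4 was the highest CD4-gated library for Ccl5, Ccl4 and Ccl3, and PPCA day 2 for Xcl1. The CD8-gated level was higher in 8 of 8 libraries for each gene. The median ratio of CD8-gated to CD4-gated level was 18.1 for Ccl5 (9.58 to 35.9), 15.6 for Ccl4 (2.15 to 37.7), 13.9 for Ccl3 (4.02 to 32.1) and 28.7 for Xcl1 (12.4 to 81.5). The lowest Ccl4 ratio was that of active disease. So was the highest Xcl1 ratio, which rests on 10 Xcl1 UMIs in the CD4 gate. Before thinning, 16 to 87 CD4-gated cells per library held a Ccl4 UMI.

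RNA freed from broken cells can put a few UMIs into any droplet, so naive-like CD4-gated cells (chosen by naive cell genes such as Ccr7 and Lef1, with no Cxcr6, Itgae or Foxp3) were read as cells that should lack the 4 transcripts. In them 1.73% to 7.27% of thinned cells held a Ccl5 UMI, at a median depth of 4106 to 6317 UMIs before thinning, with the highest shares in onset and PPCA day 2. The share in the whole CD4 gate was only 1.16 to 1.68 times that, so most CD4-gated cells with a Ccl5 UMI cannot be told apart from this background. Naive-like CD8-gated cells reached 6.12% to 16.0%, which is 1.50 to 3.92 times the share in naive-like CD4-gated cells of the same library and above it in 8 of 8. For Ccl4 the whole CD4 gate, at 0.306% to 2.08%, stood at 1.23 to 6.12 times the naive-like CD4-gated share, so part of its cells cannot be told apart from background either. The naive-like CD4-gated share was at most 0.614% for Ccl4, for Ccl3 at most 0.230% and for Xcl1 at most 0.153%.

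The transcripts were each held by the largest share of cells in a small gate of CD8 cells with tissue homing or retention genes. A cell of that gate had at least 1 UMI of Itgae (an integrin that binds E-cadherin) or Cxcr6. It had no UMI of genes that serve recirculation, such as Ccr7 and S1pr1. This tissue gate held 4.71% to 20.9% of CD8-gated cells, 131 to 518 cells per library, most in PPCA day 2 (20.9%) and onset (18.8%) and fewest in PPCA day 3 (4.71%) and vehicle day 3 (4.93%). In it 87.4% to 97.8% of thinned cells held Ccl5, at 12634 to 18958 CPM, and it supplied 37.7% to 67.7% of all Ccl5 UMIs of the CD8 gate. Ccl4 was held by 46.2% to 78.6% of these cells at 484 to 2860 CPM, and the gate supplied 50.4% to 75.6% of its UMIs. Ccl3 was held by 12.4% to 33.6% at 143 to 518 CPM. Within the tissue gate Ccl5 thus varied 1.50-fold between libraries, while Ccl4 and Ccl3 were lowest in active disease and highest in PPCA day 4. In the whole CD8 gate Ccl3 was highest at onset instead, by a narrow margin (73.6 against 73.2 CPM).

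Xcl1 UMIs came mostly from outside that gate. The tissue gate had its highest level (155 to 376 CPM, 14.2% to 35.9% of cells) but supplied only 15.8% to 27.4% of its UMIs. CD8-gated cells outside both the tissue and the naive-like gate, 40.9% to 52.9% of the CD8 gate, gave 51.5% to 78.0% of Xcl1 UMIs at 35.3 to 180.5 CPM. These other cells carried Ccl5 at 889 to 4120.04 CPM, Ccl4 at 18.9 to 382 and Ccl3 at 4.26 to 70.5. Naive-like CD8-gated cells carried 173 to 583 CPM of Ccl5, 5.74 to 23.0 of Ccl4, 0.477 to 5.11 of Ccl3 and 10.2 to 27.4 of Xcl1.

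**Figure D2:**
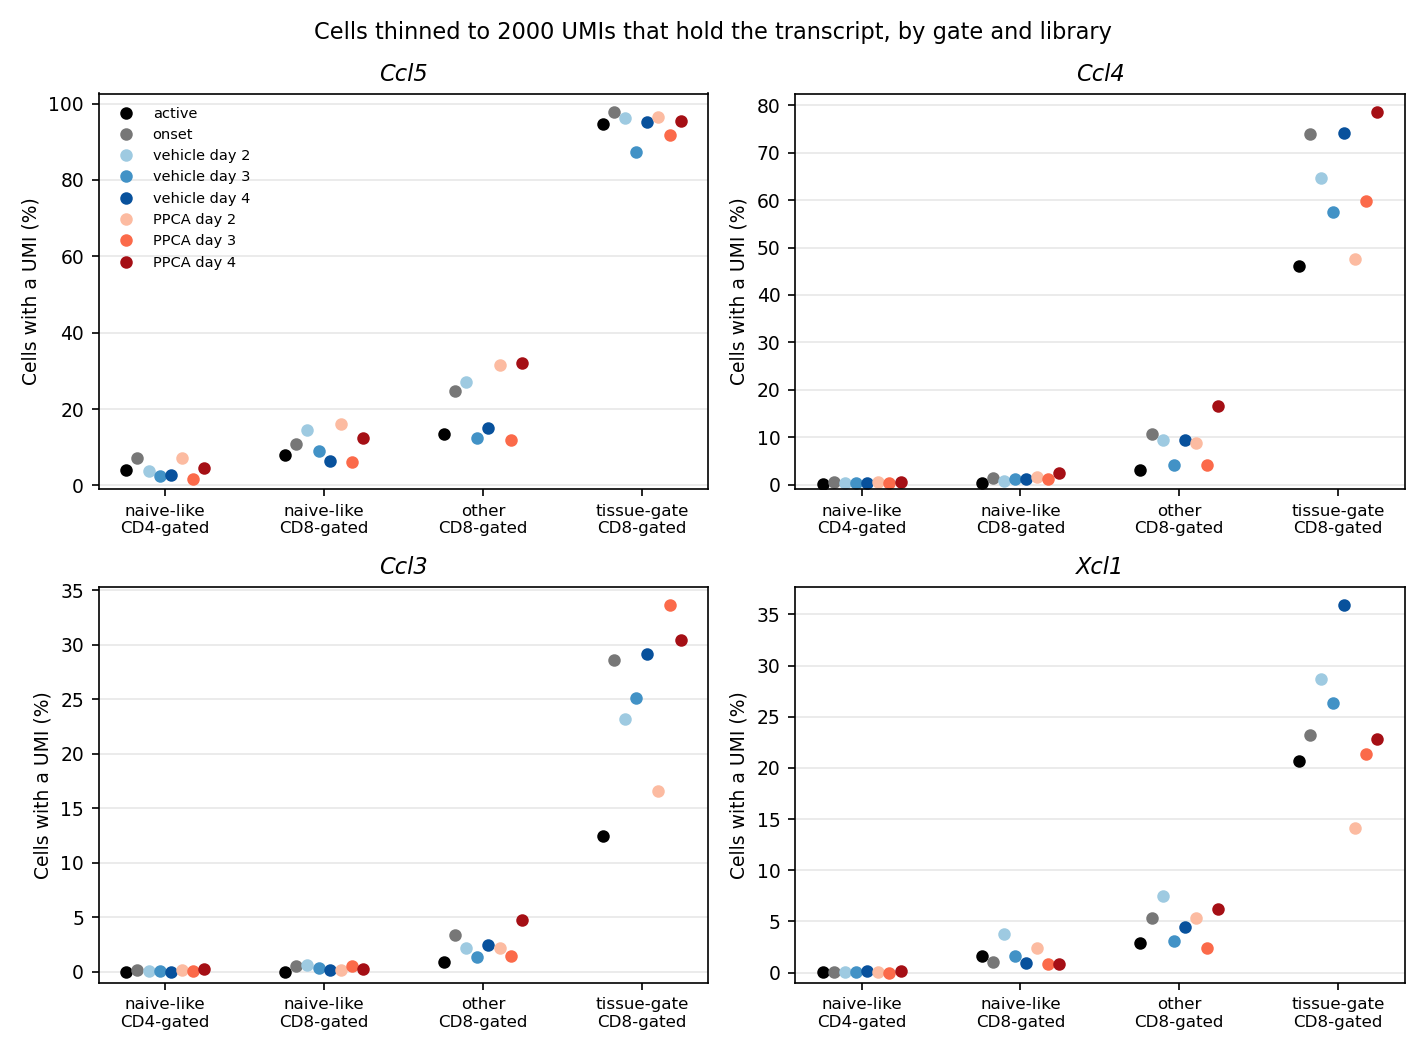
Percent of cells, thinned to 2000 UMIs, that hold a UMI of each transcript in naive-like CD4-gated cells and in 3 finer gates of CD8-gated cells; each point is a library. Tissue-gate cells are highest for every gene and library, with Ccl5 in 87.4% to 97.8% of them, and naive-like CD4-gated cells show the background.

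The CD4 tissue gate held 12 to 50 cells per library. Ccl5 reached 1099 to 9765 CPM there and was held by 23.9% to 63.8% of the cells. In PPCA day 2 these cells gave 65.5% of the Ccl4 UMIs of the CD4 gate, although only 4.35% of the thinned cells held one. In PPCA day 4, 90.1% of CD4-gated Ccl4 UMIs came from cells in none of the naive-like, Foxp3 and tissue gates, which made up 51.2% of the CD4 gate there. Foxp3-gated CD4 cells, which include regulatory T cells, had Ccl5 at 26.7 to 279 CPM.

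Most other chemokine ligands had a median under 1 CPM in both gates. Of a list of 31, 27 were among the features and 9 had no UMI in CD8-gated cells of any library. Only Ccl25 (9.07 to 14.0 CPM) and Cxcl10, an interferon-induced ligand of CXCR3 (0.929 to 12.8 CPM), had a median of at least 1 CPM in the CD8 gate, below the 31.6 CPM median of Ccl3. In the CD4 gate Ccl25 (median 11.4 CPM), Cxcl10 (2.34) and Ccl1, a ligand of CCR8 (1.08), did. There Ccl25 lay above the medians of Ccl4 (8.31 CPM), Xcl1 (2.35) and Ccl3 (2.06), and below that of Ccl5 alone. Among receptors of the 4 ligands, Ccr1, Ccr3 and Xcr1 had medians under 1 CPM in both gates, and the scavenging receptor Ackr2 had no UMI.

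The 4 transcripts were found in the same cells more often than the product of their single shares. Between 13.7% and 41.9% of thinned CD8-gated cells held at least 1 of the 4 (median 25.0%). By the medians over libraries 12.4% held exactly 1, 8.10% held 2, 4.38% held 3 and 0.437% held all 4. The pair of neighbours, Ccl4 and Ccl3, stood at 7.50 times the product of their shares (median of 8 libraries, 4.30 to 16.6). Ccl5 with Ccl4 stood at 4.36 times (2.36 to 7.28), Ccl5 with Ccl3 at 4.40 (2.46 to 7.25), Ccl4 with Xcl1 at 4.53 (1.87 to 7.56), Ccl3 with Xcl1 at 4.93 (1.20 to 9.49) and Ccl5 with Xcl1 at 3.39 (1.99 to 6.36). The values of Ccl3 with Xcl1 rest on few cells, 6 to 64 with both per library. A ratio cannot exceed 1 divided by the larger single share, so the pairs with Ccl5 have the lower ceilings and the pairs are not ranked by it. It was lowest for 5 of the 6 pairs in the PPCA day 2 library, where 39.9% of cells held Ccl5.

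**Figure D3:**
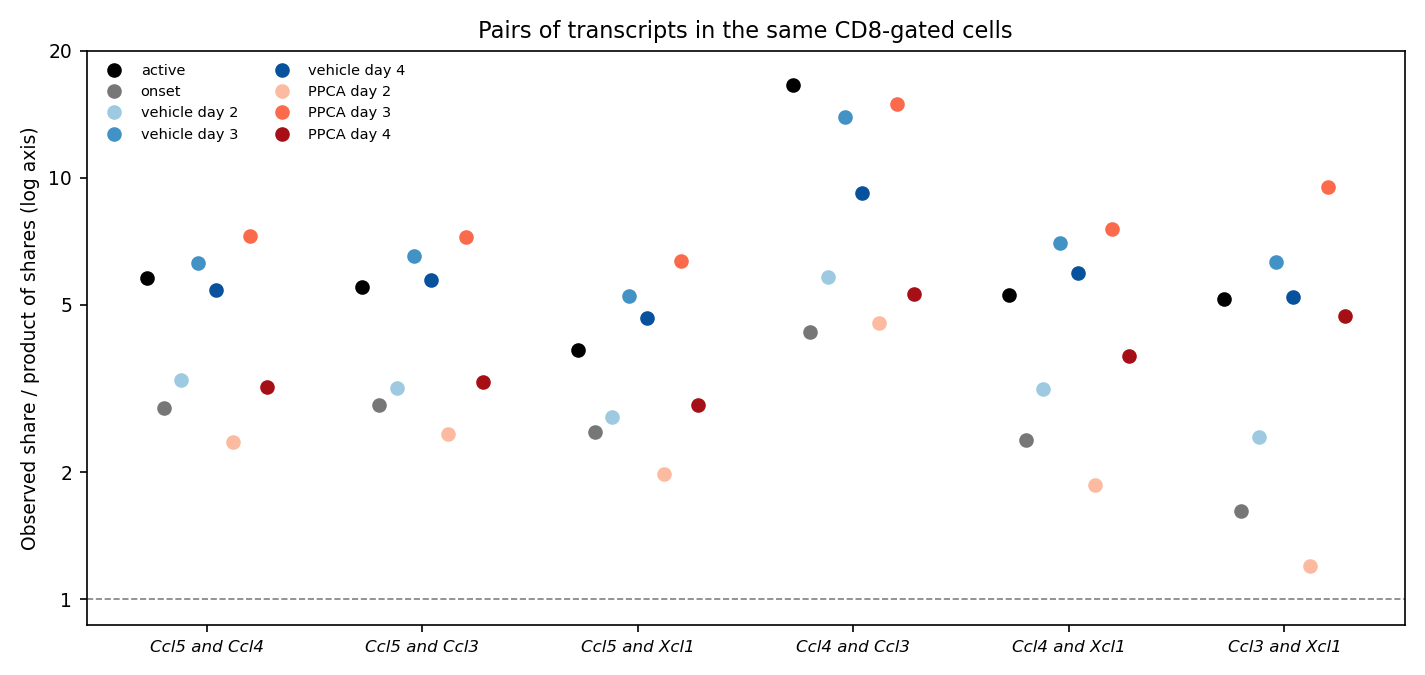
Observed share of thinned CD8-gated cells that hold both transcripts of a pair, divided by the product of the single shares (log axis); each point is a library and the dashed line marks 1. All 48 points lie above 1, those of Ccl3 with Xcl1 on 6 to 64 cells with both per library. Pairs with Ccl5 have lower ceilings than the others because Ccl5 is held by more cells.

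The overlap was nested. Of Ccl4-holding cells a median of 94.7% also held Ccl5 (90.9% to 97.4% over libraries), and of Ccl3-holding cells 95.6% (90.9% to 98.8%). Of Ccl3-holding cells 78.2% held Ccl4. In the other direction, 38.4% of Ccl5-holding cells held Ccl4 and 17.3% held Xcl1. Xcl1-holding cells were less covered: 79.4% held Ccl5 (64.1% to 87.3%) and 38.4% held Ccl4 (25.0% to 64.5%). A transcript at few copies per cell is missed in many cells at 2000 UMIs, so these shares depend on that depth, and those with Ccl5 include the background described for naive-like cells.

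Active disease and onset had 1 library each, so their difference has no replicate check. In CD8-gated cells the onset level was 3.38 times the active level for Ccl5 (4031 against 1192 CPM), 7.70 times for Ccl4 (266 against 34.5), 8.12 times for Ccl3 (73.6 against 9.06) and 2.26 times for Xcl1 (100.05 against 44.2). The exact Poisson 95% intervals, which cover counting error only, do not overlap for any of the 4: Ccl4 ran from 31.9 to 37.2 CPM in active disease and from 256 to 275 at onset. The tissue gate held 6.55% of CD8-gated cells in active disease and 18.8% at onset. Within that gate Ccl5 stood at 13617 and 18958 CPM, Ccl4 at 484 and 1371, Ccl3 at 143 and 371 and Xcl1 at 155 and 187 CPM. Both the size of the gate and the level of Ccl4 and Ccl3 inside it were thus higher in the onset library. In CD4-gated cells the onset level was 1.19 times the active level for Ccl5, 1.28 times for Ccl4, 3.72 times for Ccl3 (6.05 against 1.63 CPM) and 5.69 times for Xcl1 (3.09 against 0.543). Those of Ccl3 rest on 151 UMIs at onset and 30 in active disease, and those of Xcl1 on 77 and 10. Of thinned CD4-gated cells 0.317% and 0.176% held Ccl3, and 0.212% and 0.176% held Xcl1.

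PPCA was compared with vehicle to ask whether the drug pair changed T cell gene expression. None of the 4 genes passed the test at an adjusted p of 0.05 in either gate. The comparison summed UMIs per library and used the edgeR quasi-likelihood test with day as a factor, adjusted over all genes tested by the Benjamini-Hochberg method. It called 0 of 11620 genes in CD8-gated cells (0.0%; 918 had an unadjusted p under 0.05) and 0 of 11619 in CD4-gated cells (0.0%; 768), while DESeq2 called 40 and 33. Without the day 4 pair edgeR called 203 and 148, with Y-linked transcripts as a factor 127 and 23, and without a filter on low counts 119 and 170. Since levels by library were known when the 4 genes were chosen, their p-values are no independent support. In sums over a gate, fewer cells of a type and less RNA per cell cannot be told apart.

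Ccl5 in CD8-gated cells averaged 1732 ± 712 CPM with vehicle and 2875 ± 1479 with PPCA (SD, n = 3 libraries each). The ranges of the groups overlap, from 1059 to 2476 and from 1239.98 to 4121. The fitted log2 fold change was 0.56 (SE 0.17, adjusted p = 0.558, edgeR), and the log2 ratios by day on TMM-scaled CPM, used for all ratios by day, were 0.67 (day 2), 0.05 (day 3) and 0.96 (day 4). On the unscaled CPM they were 0.73, 0.23 and 0.98. Ccl3 averaged 26.3 ± 9.72 and 44.6 ± 27.8 CPM, a fitted log2 change of 0.55 (SE 0.18, adjusted p = 0.592, edgeR). Ccl4 averaged 149 ± 72.4 and 223 ± 166 CPM, a fitted log2 change of 0.31 (SE 0.19, adjusted p = 0.735, edgeR), and was lower with PPCA on day 3 (-0.31). Xcl1 averaged 72.7 ± 35.2 and 88.4 ± 43.3 CPM, a fitted log2 change of 0.20 (SE 0.08, adjusted p = 0.619, edgeR), and its ratios by day were 0.25, 0.13 and 0.21. The share of thinned CD8-gated cells with Xcl1 went the other way on days 2 and 3. From vehicle to PPCA it fell from 8.23% to 6.18% (day 2) and from 3.53% to 2.52% (day 3). On day 4 it rose from 5.12% to 5.61%. Without the day 4 pair the fitted values were 0.36 for Ccl5, 0.27 for Ccl3 and 0.05 for Ccl4.

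In CD4-gated cells the day 4 pair had the largest ratio for Ccl5, Ccl4 and Ccl3, and the day 2 pair for Xcl1 (log2 2.14). Ccl4 averaged 4.56 ± 1.63 CPM with vehicle and 27.6 ± 33.7 with PPCA, and its log2 ratios by day were 1.47, 0.61 and 3.33. The fitted log2 fold change of 1.97 (SE 0.48, adjusted p = 0.641, edgeR) was 1.05 without the day 4 pair. Ccl5 averaged 78.5 ± 31.7 and 180.7 ± 137 CPM, with log2 ratios of -0.02, 0.17 and 2.67 by day and a log2 fold change of 0.90 that was 0.07 without day 4. Fitted log2 changes were 1.69 for Ccl3 (SE 0.57, adjusted p = 0.713, edgeR) and 1.03 for Xcl1 (SE 0.52, adjusted p = 0.758, edgeR), and both were lower with PPCA on day 3. Without day 4 that of Ccl3 was 0.67. Without a filter on low counts, 9 of the 12 adjusted p-values of the 4 genes over both gates and their difference passed the threshold.

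The pairs by day also differ in Y-linked transcripts. In CD8-gated cells Ccl5, Ccl4 and Ccl3 had log2 ratios on TMM-scaled CPM between -0.31 and 0.05 on day 3, where both libraries carried them. On days 2 and 4 their ratios lay between 0.42 and 1.06. There 1 library carried Y-linked transcripts, the vehicle one on day 2 but the PPCA one on day 4. On unscaled CPM the day 3 ratios were 0.23 for Ccl5, -0.13 for Ccl4 and 0.18 for Ccl3, whose sign thus depends on the scaling. PPCA day 2 against vehicle day 4, which both lack Y-linked transcripts but differ in day, gave linear CD8-gated ratios of unscaled CPM of 2.48 for Ccl5, 0.839 for Ccl4, 1.23 for Ccl3 and 1.64 for Xcl1. The tissue gate moved with the same pairs, from 10.4% of CD8-gated cells in vehicle to 20.9% in PPCA (day 2), 4.93% to 4.71% (day 3) and 7.95% to 11.5% (day 4). Inside it Ccl5 stood at 13372 CPM in vehicle and 14721 in PPCA (day 2), 12634 and 18951 (day 3) and 14600.2 and 15527 (day 4). With Y-linked transcripts as a factor the fitted log2 changes in CD8-gated cells were 0.56 for Ccl5, 0.32 for Ccl4, 0.55 for Ccl3 and 0.20 for Xcl1, and none of the 4 passed in either gate. The factor enters the day 2 and day 4 pairs with opposite signs and leaves out the day 3 pair. It thus cancels in the mean of the pairs, so the design kept these changes nearly as without it. The part of Y-linked status and that of the tissue gate's size in the ratios by day were not tested.

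**Figure D4:**
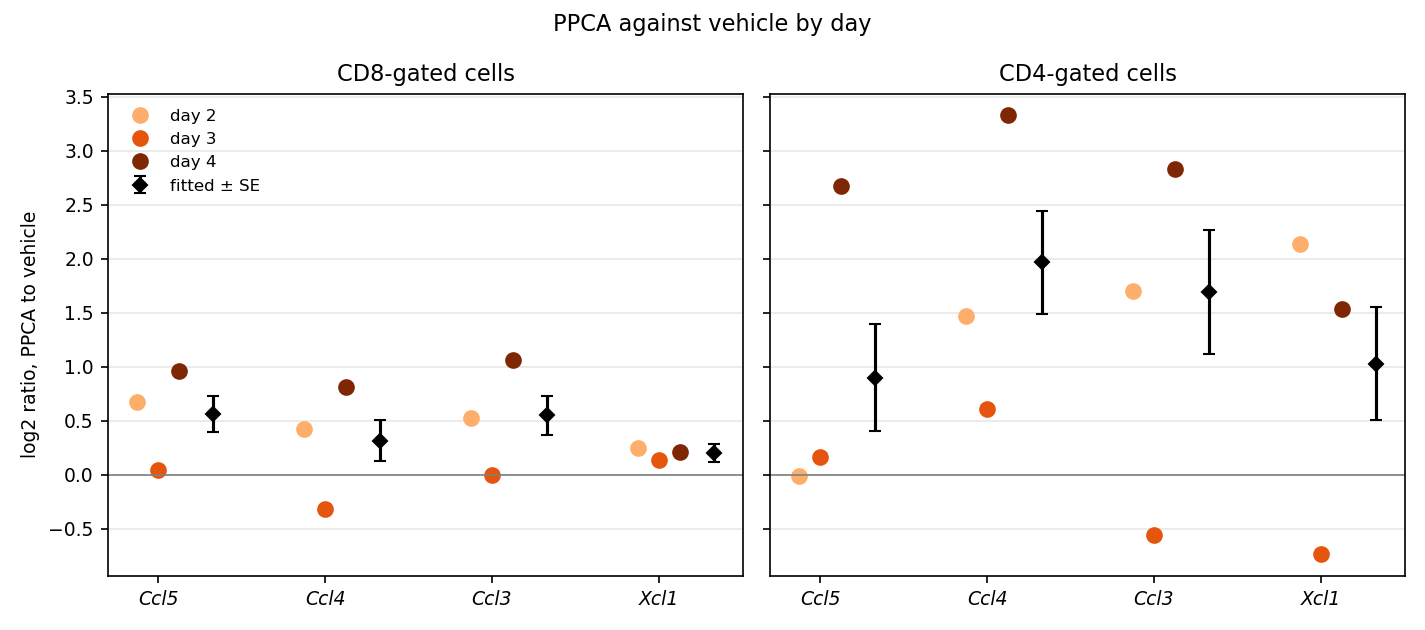
Log2 ratio of PPCA to vehicle per day (circles, TMM-scaled CPM) and fitted log2 fold change with its standard error (diamonds) for the 4 genes in CD8-gated and CD4-gated cells. Day 3 is nearest to or below 0 for most genes, and day 4 is highest for Ccl5, Ccl4 and Ccl3 in both gates.

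The difference of the PPCA effect between gates was tested within libraries. The log2 change in CD8-gated cells minus that in CD4-gated cells was -1.77 for Ccl4 (SE 0.34, adjusted p = 0.777, edgeR), -1.29 for Ccl3, -0.90 for Xcl1 and -0.40 for Ccl5, and none passed. Without the day 4 pair that of Ccl5 turned to 0.31 (SE 0.29), and those of Ccl4 and Ccl3 moved to -0.90 and -0.40. The test called 1 of 12166 genes (0.00822%), BC018473 at -0.56 (SE 0.07, adjusted p = 0.0292, edgeR), which is named here after its value was seen. The count was 0 without the block, with gates of at least 2 UMIs and with any day pair left out, and 52 without a filter on low counts. In edgeR 463 genes reached an unadjusted p under 0.05. Among the gene lists none had a called member in either gate. Chosen after their values were seen, 2 lists are given without a call. The checkpoint receptors and Tox were positive for 9 of 9 genes tested in CD8-gated cells (median log2 0.64) and 8 of 8 in CD4-gated cells (0.80), against a median of 0.00 over all genes. T cell receptor response genes were positive for 6 of 17 in CD8-gated cells (median -0.17) and 9 of 17 in CD4-gated cells (0.08). The other lists are left out here, and the part of the tissue gate's size in these medians was not tested.

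What else the chemokine-holding cells carried was asked by summing, per library, thinned CD8-gated cells with a UMI of a member and those with none, and testing all other genes with library as a block (edgeR quasi-likelihood test, adjusted over all genes tested). Ccl5-holding cells (5157, 350 to 1318 per library) were higher than the 16671 others for 1818 of 9095 genes (20.0%) and lower for 1865 (20.5%; 40.5% in either direction). All 4 ligands went together here: Ccl3 stood at 178 against 1.08 CPM, Ccl4 at 866 against 9.65 and Xcl1 at 164 against 30.4, each higher in 8 of 8 libraries. Highest by the naming rule, each higher in 8 of 8 libraries, were Klre1, Klrc1 and Klrc2, receptors of the NK lectin family, Itga1, an integrin that binds collagen, and Gzmk, a granzyme. Gzmk stood at 186 CPM with and 0.745 without (log2 fold change 7.78, SE 0.12, adjusted p = 3.0e-35), Klre1 at 122 and 0.533 and Itga1 at 160.2 and 0.654.

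By list, Ccl5-holding cells were higher for 10 of 11 granule genes (median log2 1.57), among them Gzma (6.36), Fasl (4.98) and Gzmb (4.82). They were higher for 9 of 9 residency genes (median 3.19), a list that counts Xcl1 again, including Rgs1 at 702 against 47.3 CPM and Bhlhe40 (4.06), and for 7 of 7 checkpoint genes (median 2.89). Of these, the inhibitory receptor Pdcd1 stood at 40.8 against 2.66 CPM, the ectonucleotidase Entpd1 at 41.3 against 0.648, and Havcr2 at 13.1 CPM against no UMI in the cells without Ccl5. Taking 3 counts over those cells as the floor, Havcr2 was at least 146-fold higher, and the list median stays at 2.89. Cytokines were higher for 5 of 7, led by Ifng at 293 against 7.06 CPM, and effector transcription factors for 9 of 10, led by Zeb2 (5.51), Hopx (5.46) and Prdm1 (4.14). Naive and exit genes were lower for 10 of 10 (median -1.27), with Lef1 at 207 against 776 CPM. Lowest by the naming rule were Ccr9, a gut homing receptor (-2.68), Igfbp4 (-2.53), Dapl1 (-1.98), Lef1 (-1.94) and Bach2, a repressor of effector genes (-1.85).

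Ccl4-holding cells (2392) were higher for 1646 of 8857 genes (18.6%) and lower for 1601 (18.1%; 36.7% in either direction). Ccl3 led, at 330.3 against 6.80 CPM (log2 5.66, SE 0.19, adjusted p = 2.3e-22), with Klre1 (4.29), Klrc2 (4.02) and Ccl5 (3.88) among the highest. Their checkpoint genes were higher for 8 of 8 (median 3.11), led by Havcr2 (4.17) and Entpd1 (3.66), and residency genes for 9 of 9 (median 2.91). Ifng stood at 423 against 30.0 CPM. Naive and exit genes were lower for 10 of 10 with a median of -2.11, and Ccr7, a lymph node homing receptor, stood at 33.8 against 275 CPM.

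Ccl3-holding cells (816, 33 to 243 per library) were higher for 929 of 8544 genes (10.9%) and lower for 1112 (13.0%; 23.9% in all). Highest by the naming rule were Ccl4 at 2435 against 147 CPM, Gzmb, the main cytotoxic granzyme, at 111 against 7.85, Klre1 (3.30), Pdcd1 (3.15) and Ifng (3.08). Checkpoint genes were higher for 8 of 8 (median 2.66), and naive and exit genes lower for 10 of 10 (median -2.62), with Ccr7 at 30.2 against 262 CPM. Genes of the T cell receptor response were higher for 8 of 15 and lower for 2, with Nr4a2, an early response nuclear receptor, at 159 against 23.3 CPM.

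Xcl1-holding cells (1090, 69 to 245 per library) were higher for 701 of 8483 genes (8.26%) and lower for 749 (8.83%; 17.1% in either direction). That balance was 340 higher and 640 lower with a class of at least 2 UMIs, and 273 and 418 with cells thinned to 1000 UMIs. It turned to 748 higher and 685 lower with DESeq2 size factors. Highest by the naming rule (at least 50 CPM on average and the same sign in every library) were S100a4 at 1004 against 221 CPM, Itga1 (2.30), Ifng (2.18), Rgs16 (2.15) and Ccl4 (2.10). T cell receptor response genes were higher for 11 of 16 and lower for 0 (median 1.00), led by Tnfrsf9, the costimulatory receptor 4-1BB (3.03, SE 0.26, 40.3 against 4.77 CPM), and Spry1 (2.47). In Ccl5-holding cells the same list had 5 higher and 3 lower of 16 (median -0.14). These classes share cells and controls, so the lists are set side by side without a test of the difference. Granule genes were higher for 6 of 11 in Xcl1-holding cells, and Gzmb did not pass (log2 0.08, SE 0.33). The transcription factor Id3 was higher (0.86) in Xcl1-holding and lower in Ccl4-holding (-1.37) and Ccl3-holding (-1.59) cells. Naive and exit genes were again lower for 10 of 10, led by Lef1 (-2.45).

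**Figure D5:**
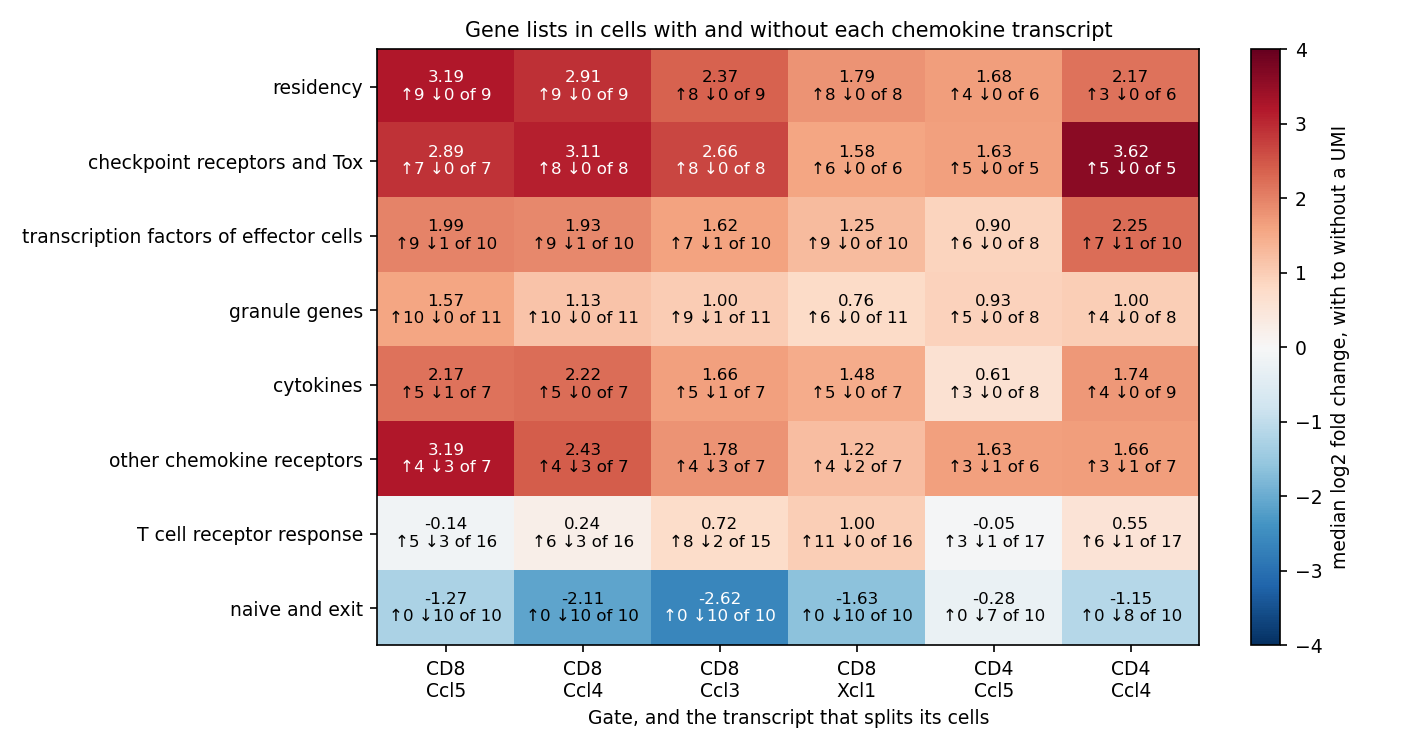
Median log2 fold change of each gene list (rows) in cells with against cells without a UMI of the named transcript (columns), with the number of genes called higher (up arrow) and lower (down arrow) of those tested; red is higher with the transcript and blue lower. Residency and checkpoint lists are red and naive and exit genes blue in every column, and the T cell receptor response list has its highest median, 1.00, for Xcl1.

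In CD4-gated cells the Ccl5 class (1542 cells) includes the background described for naive-like cells. It was higher for 290 of 9293 genes (3.12%) and lower for 234 (2.52%; 5.64% in either direction). That balance turned to 431 higher and 737 lower with a class of at least 2 UMIs, to 152 and 216 with cells thinned to 1000 UMIs, and to 306 and 474 without a filter on low counts. Ccl3 stood at 61.4 against 0.627 CPM (log2 6.38, SE 0.28). Highest by the naming rule were Ccl4 at 244 against 3.25 CPM (6.01, SE 0.15), Nkg7, a granule protein (3.88), Cxcr6 (3.34), S100a6 (2.53) and Cxcr3 (2.42). Checkpoint genes were higher for 5 of 5 and naive and exit genes lower for 7 of 10 (median -0.28). The Ccl4 class was tested in the 4 libraries where it had at least 20 cells (43 at onset, 22 in PPCA day 2, 24 in vehicle day 4 and 61 in PPCA day 4) and was higher for 147 of 9018 genes (1.63%) and lower for 227 (2.52%; 4.15% in all). That balance turned in other settings: DESeq2 size factors gave 186 higher and 143 lower, DESeq2 gave 119 and 57, and no thinning gave 370 and 327. The median over all genes was -0.19 on the log2 scale with TMM. The class also includes the background share of Ccl4 given for naive-like cells. Ccl3 stood at 452 against 1.21 CPM in it, Ccl5 at 6375 against 118, Lag3, an inhibitory receptor, at 224 against 13.9, and Il21, a helper cytokine, at 86.7 against 5.51.

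Because nearly all Ccl4-holding and most Xcl1-holding CD8 cells also held Ccl5, the Ccl5-holding cells were split again by each. These splits were added after the data were seen. With Ccl4 (2273 cells) against without (2884), 680 of 6132 genes were higher (11.1%) and 711 lower (11.6%; 22.7% in all). Ccl3 led (log2 3.23, SE 0.11, 368 against 37.3 CPM), with Klre1 (1.79), Rgs16 (1.57) and Klrc2 (1.52) among the highest. Gzmb was higher (1.85), Ifng stood at 471 against 166 CPM and Lag3 at 82.5 against 29.4. Naive and exit genes were lower for 10 of 10 (median -1.89), with Ccr7 at 27.3 against 152 CPM, and Id3 was lower (-2.16). Gzmm was lower as well (-1.58), a call that did not hold without thinning.

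With Xcl1 (876 cells) against without (4281), the same Ccl5-holding cells differed in 59 genes higher (1.04%) and 104 lower (1.84%; 2.89% in all) of 5646. Ccl4 (log2 0.19, SE 0.07, adjusted p = 0.162, edgeR) and Ccl3 (0.14, SE 0.11, adjusted p = 0.722, edgeR) did not pass. Without the 4 libraries with Y-linked transcripts Ccl4 turned to -0.11 and Ccl3 to -0.60, which passed (adjusted p = 0.0435, edgeR), and Ccl3 was also below 0 with DESeq2 (-0.0785) and at 1000 UMIs (-0.0201). Itgae stood at 173 against 76.1 CPM (1.06, SE 0.12, adjusted p = 5.0e-12), followed under the naming rule by Cish, a cytokine signalling inhibitor (0.66), Ccdc50 (0.63), Jaml (0.62) and Itgb1 (0.60). Residency genes were higher for 5 of 6 tested and naive and exit genes lower for 9 of 9, with Lef1 at 96.9 against 263 CPM. Of the T cell receptor response genes 1 of 8 tested was higher and 0 were lower (median 0.17), namely Dusp2, a phosphatase (0.23, SE 0.07), while Tnfrsf9 and Spry1 were not among those tested. Gzmb was lower, at 13.7 against 47.5 CPM, but did not pass without thinning (adjusted p = 0.484, edgeR). With cells thinned to 1000 UMIs 7 genes were called (4 higher and 3 lower), and without the 4 libraries with Y-linked transcripts 38 (17 and 21). Without a filter on low counts 273 were called, 40 higher and 233 lower.

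Across the 8 CD8-gated sums, the genes whose log2(CPM + 1) followed each ligand most closely were taken from 7230 genes with a mean of at least 10 CPM, as a description over 8 libraries that differ in depth and gate makeup, both of which can move many genes together. Ccl5 was followed by Klrc1 (Pearson r = 0.985), Gzmk (0.977) and Itgb1 (0.975). Ccl4 was followed by Pdcd5 (0.982), H2afv (0.974) and Ccl3 (0.968), and Ccl3 by Ccl4 (0.968), H2afv (0.962) and Pdcd5 (0.959). Xcl1 was followed by Gemin7 (0.979), Setd3 (0.978) and Bcl2a1d (0.976). Between the ligands, Ccl5 with Xcl1 gave 0.931, Ccl5 with Ccl3 0.877 and Ccl5 with Ccl4 0.776.

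In the authors' deposited table of cluster markers, all 4 genes are listed for the cluster named CD8 TRM TEM and for no other. In the authors' deposited table Ccl5 ranks 1 of 702 genes by log2 fold change there (6.77, detected in 98.9% of its cells) and Ccl4 ranks 3 (3.82, 68.5%). The authors' deposited table gives Ccl3 at rank 18 (1.92, 26.2%) and Xcl1 at rank 35 (1.36, 28.3%).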

How the data were processed

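The authors deposited raw UMI counts per gene and barcode for 8 libraries. The file headers name cellranger 6.0.0, while per the submitters' processing notes Cell Ranger 6.1.2 and Seurat were used. The authors' deposited marker table holds log2 fold changes, fractions of cells and p-values. Barcodes with at least 500 genes and under 10% mitochondrial counts were kept, and the top-scoring 0.8% per 1000 barcodes by scrublet (scanpy 1.11.5) were removed as doublets, as were cells with more than 1 UMI over Cd79a, Cd79b, Ms4a1, Lyz2, Csf1r and C1qa. The members and lists were chosen with earlier results of these data known.

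Sums per library were tested with edgeR 4.0.16 in R 4.3.3 (TMM, filterByExpr, quasi-likelihood F test, threshold 0.05 after Benjamini-Hochberg adjustment). DESeq2 1.42.0 was an alternative. Cells were thinned to 2000 UMIs for shares and classes, and a class needed 20 cells per library. Named genes are the 4 ligands; in each class test the top 5 and bottom 5 by log2 fold change among called genes with the same sign in every library and at least 50 CPM on average over both classes (receptor segments, mitochondrial, ribosomal, Gm and Rik genes left out); up to 4 of each list by size of change; and 3 genes per ligand by correlation. Day paired the libraries: deviations of same-day libraries from their group means correlated at 0.320, 0.532 and 0.478 in CD8-gated and 0.293, 0.338 and 0.469 in CD4-gated cells. Each test was checked on simulated counts, where that of the CD4-gated Ccl4 class recovered far fewer of the changed genes than the others. Some genes that the rule names or the gates use are not reported here.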

Additional observations from a re-analysis of the deposited data

How the results depend on the processing

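The CD8-gated to CD4-gated ratio and the co-detection kept their direction under every alternative run. For PPCA in CD8-gated cells, where 0 genes were called, 2 were called with DESeq2 size factors, 40 with DESeq2, 119 without a low-count filter, 2 with gates of at least 2 UMIs, 127 with Y-linked transcripts as a factor and 0 to 203 with a day pair left out. In CD4-gated cells 33 were called with DESeq2, 170 without the filter, 23 with the Y-linked factor and 0 to 148 with a pair left out. The interaction gave 52 calls without the filter, 0 with gates of at least 2 UMIs and 0 with any pair left out. Without the replicate block (day or library), the counts were 0, 0 and 0, and no call of a ligand changed. Without the low-count filter, 9 adjusted p-values of the ligands, over both gates and the interaction, passed the threshold. Without day 4 the interaction of Ccl5 turned to 0.31.

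Calls by class depended on thinning and libraries. Thinning to 1000 UMIs gave 1984 for Ccl4, 1053 for Ccl3 and 691 for Xcl1 in CD8-gated cells, 156 for Ccl4 in CD4-gated cells, and 523 and 7 in Ccl5-holding cells split by Ccl4 and Xcl1. No thinning gave 3394 for Ccl3, 3146 for Xcl1, 697 for CD4-gated Ccl4, and 3229 and 650 for the splits. Without the 4 libraries with Y-linked transcripts there were 1307 for Ccl3, 844 for Xcl1, 262 and 230 for CD4-gated Ccl5 and Ccl4, and 832 and 38 for the splits. DESeq2 called 176 for CD4-gated Ccl4, and 774 and 86 for the splits. A class of at least 2 UMIs gave 1168 for CD4-gated Ccl5 and 86 for the Xcl1 split, which had 273 without the filter. In the Xcl1 split Ccl4 turned to -0.11 without the Y-linked libraries, and Ccl3 to -0.0785 with DESeq2, -0.0201 at 1000 UMIs and -0.60 without those libraries (adjusted p = 0.0435, edgeR). The causes were not tested. Of the values of named genes by class, 1913 kept direction and side of the threshold, 83 lost the call, 3 gained it and 4 turned. The class of at least 2 UMIs of Ccl4 in CD4-gated cells was not run, since too few libraries had 20 cells.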
